A study of Mus musculus with 17 samples.

Results

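The response of LIF-treated plasmacytoid dendritic cells to CpG-B was read from 6 of the 17 Affymetrix arrays of the series, the 3 titled CpG-B + LIF against the 3 titled LIF, over all 19751 genes that could be named. The mice were C57BL/6, and marrow was depleted of other cells with magnetic beads before a FACS gate on intermediate CD11c together with B220 and Siglec-H. The CpG-B + LIF cells had LIF at 10 ng/ml for 1 h and then also CpG-B (oligonucleotide 1826) at 6 µg/ml for 19 to 23 h, 18 to 24 h in the series' design text. The LIF cells had LIF alone at 10 ng/ml for 20 to 24 h. Beside these stood CpG-B at the same dose without LIF (3 arrays) with its medium control (2 arrays, replicates 1 and 3), and CpG-A (oligonucleotide 2216) at 6 µg/ml after LIF (3 arrays). The LIF arrays therefore share the cytokine with the cells they are set against, and each difference between these groups is that of CpG-B in the presence of LIF. CpG-A at 6 µg/ml without LIF (3 arrays) completed the series and entered only the estimate of the spread shared by all 17 arrays. Whether replicates came from separate mice or from pools is not stated, so the p-values measure the spread between these cultures or arrays, which may be technical.

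Plasmacytoid dendritic cells are the dendritic cells known for making type I interferon when nucleic acid reaches TLR7 or TLR9 in their endosomes. CpG-B is a class of unmethylated DNA oligonucleotide that signals through TLR9 and MyD88, mostly to NF-kB, and is known for driving maturation more than interferon, whereas CpG-A is known for inducing interferon. LIF (leukaemia inhibitory factor) is a cytokine of the IL-6 family that signals through the LIF receptor, its partner gp130 and STAT3.

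The deposited intensities had lost their decimal mark. A log2 difference is therefore known only up to steps of 3.32, which is a factor of 10, and it was taken as its nearest reading, which lies between -1.66 and 1.66. A direction, written as read higher or read lower, was given to called genes whose reading was at most 1.11 in size (2.15-fold), since the other reading is then an opposite change of at least 4.64-fold. For larger readings the direction was not readable and both values are given. A true rise of 4.64-fold or more but well short of 10-fold would be read here as a decrease, and a change of 10-fold as none. Levels could not be recovered at all, so the labelled cell type could not be checked against its markers by level, and signal over background is unknown. The median SD within groups was 0.19 on the log2 scale, no array stood apart (root mean square deviations from the group means of 0.146 to 0.213) and no 2 arrays were identical. Values below are log2 readings ± SE of the fit over all 17 arrays, with 3 arrays in each of the groups compared unless stated (2 for medium), and values by array are relative to the mean of the 3 LIF arrays. The median given for a gene list is that of its nearest readings. Where many members have no readable direction, readings of either sign can stand for the same change, and this median need not be the list's centre.

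CpG-B changed 5025 of the 19751 genes in cells with LIF (25.4%, adjusted p under 0.05), of which 2070 read higher (10.5%), 1781 read lower (9.02%) and 1174 could not be given a direction (5.94%). At an unadjusted p under 0.05 there were 6890. The median reading of all genes was -0.0405 and the median SE 0.154. The 10 genes with the smallest p among those that read higher were Manf, Ran, Heatr6, Nup93, Calr, Tapbp, Sec23b, Stx11, Nploc4 and Tcp1, which hold endoplasmic reticulum chaperones, nuclear transport factors, a subunit of the COPII vesicle coat (Sec23b) and a chaperonin subunit. The 10 with the smallest p among those that read lower were Flna, Ptprc, Jmjd1c, Lifr, Snx18, Rnase6, Tex2, Tbc1d9, Tyrobp and Snx9. Flna, an actin crosslinker, was at -1.14, -1.16 and -1.02 in CpG-B + LIF arrays, against -0.05, 0.13 and -0.08 in LIF arrays. Ptprc, which encodes CD45, was at -1.03, -1.0 and -1.10 in CpG-B + LIF arrays, against -0.02, 0.07 and -0.06 in LIF arrays. The groups stood about 1 log2 unit apart in both genes, several times the spread within either group, as a choice by smallest p implies. The 10 with no readable direction were Milr1, Inpp5k, Kmo, Hspa9, Pik3cd, Cct7, Cct6a, Pitrm1, Wdr43 and Cct3.

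**Figure D1:**
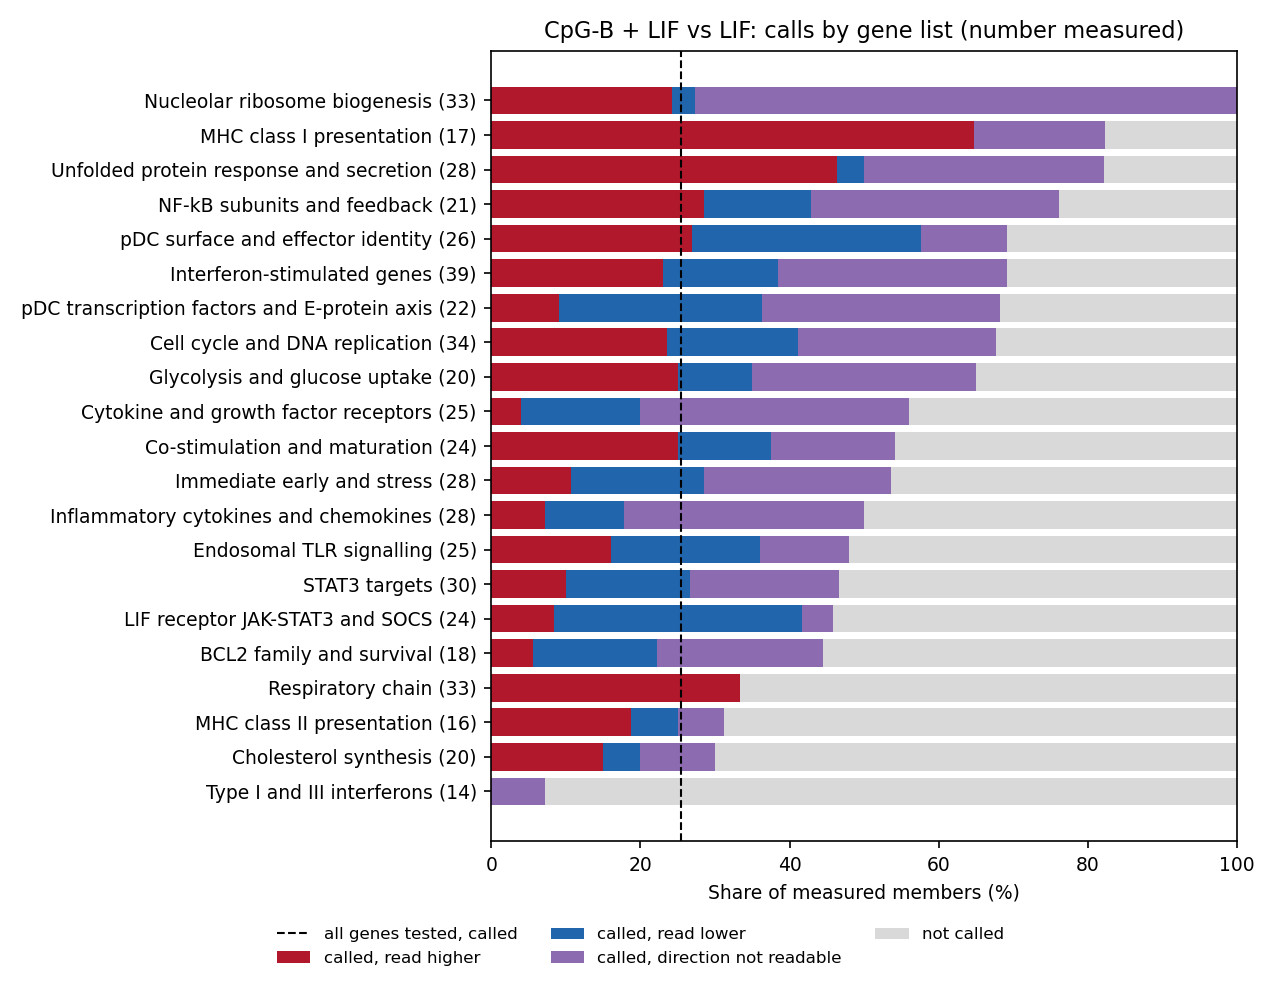
Share of measured members (%, x axis) of each of 21 gene lists (rows, number measured in brackets) that were called in CpG-B + LIF vs LIF, split by direction, with the dashed line at the share of all genes called. The nucleolar list was called in all 33 members, mostly with no readable direction, and the type I and III interferons in 1 of 14.

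NF-kB subunits and feedback inhibitors were among the groups in which most members changed. Relb, the subunit of the non-canonical pathway that marks dendritic cell maturation, read 0.86 ± 0.16 higher, and the adhesion molecule gene Icam1, a common NF-kB target, 0.91 ± 0.15 higher. Of 21 measured members, 16 were called (76.2%, against 25.4% of all genes). Of these, 6 read higher, 3 read lower and 7 had no readable direction, with a median reading of -0.167. Canonical feedback inhibitors fell among the 7. The 3 that read lower are not named here, and Icam1 is also on the list of STAT3 targets. The promoters of Nfkb2, Nfkbia and Tnfaip3, called members with no readable direction, are shown because their windows hold the motif, in capitals, on either strand. The windows come from RefSeq on GRCm38.p6, 5′ to 3′ on the gene's strand, with Nfkb2 at chr19:46304667-46304786 (plus strand), Nfkbia at chr12:55492617-55492780 (minus strand) and Tnfaip3 at chr10:19015393-19015578 (minus strand).
Nfkb2: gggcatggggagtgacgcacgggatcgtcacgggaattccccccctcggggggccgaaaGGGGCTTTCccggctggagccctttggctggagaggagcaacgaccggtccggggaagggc
Nfkbia: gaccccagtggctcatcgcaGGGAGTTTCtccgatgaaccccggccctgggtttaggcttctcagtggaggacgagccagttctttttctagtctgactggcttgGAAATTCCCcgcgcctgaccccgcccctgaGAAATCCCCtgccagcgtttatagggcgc
Tnfaip3: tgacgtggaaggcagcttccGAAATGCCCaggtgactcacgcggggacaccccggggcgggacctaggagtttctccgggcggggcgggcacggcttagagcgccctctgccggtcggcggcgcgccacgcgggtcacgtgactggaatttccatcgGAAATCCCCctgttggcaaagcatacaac
The motif searched was GGGNNTTTC on both strands, over 250 bases before to 50 bases after each gene's start. It stood in 6 of 19 windows of called NF-kB members (31.6%; 13 of the 16 called members had a window), against 1432 of all 32851 windows (4.36%). Nfkbia held 3 copies and Tnfaip3 held 2. The list was made of known NF-kB genes and its uncalled members were not counted, so this share cannot be tied to the calls. A match is a run of letters and not a measured binding site.

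Nfkb2, the precursor that pairs with RelB, was at 1.27, 1.41 and 1.43 in CpG-B + LIF arrays, against -0.02, 0.05 and -0.03 in LIF arrays. That is a reading of 1.37 ± 0.12, or -1.95 (adjusted p = 3.7e-07). The 3 stimulated arrays lay far from the 3 LIF arrays, with a spread under 0.2 in either group. Nfkbia, the inhibitor that holds NF-kB in the cytoplasm, was at -1.36, -1.84 and -1.42 in CpG-B + LIF arrays, against 0.03, -0.33 and 0.31 in LIF arrays, which reads -1.54 ± 0.16 or 1.78 (adjusted p = 1.56e-06). For Tnfaip3, the deubiquitinase A20 that dampens the pathway, the readings were -1.32 ± 0.14 or 2.00, and for its partner Tnip1 -1.29 ± 0.12 or 2.04. In none of these 3 inhibitors did the groups overlap. Traf1, an adaptor of TNF receptors, read 1.58 ± 0.17 or -1.74, and Nfkbib, a further inhibitor, 1.09 ± 0.14 higher. Rel, the subunit most used in lymphoid cells, was not called (-0.17 ± 0.13, adjusted p = 0.409).

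Cytokine and chemokine genes changed in 14 of 28 members (50%, against 25.4% of all genes). Among the 14, 2 read higher, 3 read lower and 9 had no readable direction. The called members named below all had positive nearest readings, and the 3 that read lower are not named here. Tnf was at 1.43, 1.31 and 1.23 in CpG-B + LIF arrays, against -0.31, 0.58 and -0.27 in LIF arrays, a reading of 1.32 ± 0.18 or -2.00 (adjusted p = 1.92e-05). Il12b, the p40 chain shared by IL-12 and IL-23, read 1.00 ± 0.29 higher (adjusted p = 0.0134). Its arrays ran 1.02, 1.38 and 0.61 with CpG-B + LIF and 0.34, 0.25 and -0.59 with LIF, and its call was lost without CpG-B + LIF replicate 2 (0.82, adjusted p = 0.0736) and without LIF replicate 3 (0.71, adjusted p = 0.0896). Il27, an IL-12 family cytokine subunit, read 1.34 ± 0.21 or -1.99, and the chemokines Ccl5 and Ccl3 1.58 ± 0.23 or -1.74 and 1.29 ± 0.19 or -2.03. Il6 gave -0.70 ± 0.26 and was not called (adjusted p = 0.0534), but was called without LIF replicate 3 (-1.03, adjusted p = 0.00321) and with the replicate number as a block (adjusted p = 0.045), and Cxcl10 gave -0.33 ± 0.20 (adjusted p = 0.26).

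Maturation genes were called in 13 of 24 members (54.2%, against 25.4% of all genes). Of these, 6 read higher, 3 lower and 4 had no readable direction, with a median of 0.31. Ccr7, the receptor that guides maturing dendritic cells to lymph nodes, was at 1.19, 1.11 and 1.00 in CpG-B + LIF arrays, against -0.15, -0.29 and 0.45 in LIF arrays. It read 1.10 ± 0.18 higher (2.14-fold, adjusted p = 0.000136), near the limit on direction. All 3 stimulated arrays were above the highest LIF array. The co-stimulatory ligand Cd80 read 1.45 ± 0.25 or -1.87 (0.74 with its probe sets averaged, adjusted p = 0.0341), the maturation marker Cd83 1.57 ± 0.25 or -1.75, and Fscn1, the actin bundler of dendrites, 1.51 ± 0.24 or -1.81. Cd86 read lower at -0.62 ± 0.21 (adjusted p = 0.0364), a call lost without LIF replicate 1 (-0.42, adjusted p = 0.205) or without any 1 CpG-B + LIF array (-0.68 to -0.51, adjusted p = 0.0509 to 0.144). If Cd86 is taken by its other reading, it is 2.70 higher. Cd40 gave 0.13 ± 0.17 and Cd274, which encodes PD-L1, 0.37 ± 0.19, and neither was called, although Cd274 was without LIF replicate 2 (0.56, adjusted p = 0.0438).

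The ribosome factory of the nucleolus had the largest share of called genes among the lists examined. In this list, which covers ribosomal RNA transcription, processing and small nucleolar RNPs and includes Myc, a known driver of ribosome production, 33 of 33 members were called, against 25.4% of all genes. Of these, 8 read higher, 1 read lower and 24 had no readable direction. The median nearest reading was 0.956, which is not the centre of the list, since 19 nearest readings were positive and the others negative. Taken as increases, the 33 readings span 0.547 to 2.38, and taken as decreases -2.78 to -0.942, so they fill 1.83 of the 3.32 units of the period. Npm1, the nucleolar chaperone nucleophosmin, was at 1.12, 0.93 and 1.02 in CpG-B + LIF arrays, against 0.13, -0.28 and 0.15 in LIF arrays, and read 1.02 ± 0.13 higher (adjusted p = 1.29e-05). Fbl, which encodes fibrillarin, the methyltransferase of box C/D RNPs, read 1.03 ± 0.14 higher. Mybbp1a was the 1 member that read lower (-0.94 ± 0.14, or 2.38). Npm1, Fbl and Mybbp1a were named after their values were seen.

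Wdr43, a component of the small subunit processome, was at -1.58, -1.64 and -1.62 in CpG-B + LIF arrays, against -0.03, -0.05 and 0.08 in LIF arrays. Its readings were -1.62 ± 0.12 or 1.70, which is 3.07-fold one way or 3.26-fold the other (adjusted p = 1.56e-07). The spread within each group was under 0.2, so the position on the period is sharp although the direction is not readable. Gar1, of the box H/ACA RNPs that modify ribosomal RNA, read 1.39 ± 0.11 or -1.94. Polr1a, the largest subunit of RNA polymerase I, read 1.55 ± 0.14 or -1.78, the RNA helicase gene Ddx21 1.63 ± 0.15 or -1.70, and Myc -1.57 ± 0.18 or 1.76. The groups did not overlap in 33 of the 33 genes, against 37.2% of all genes. The promoters of Wdr43 (chr17:71616145-71616264, plus strand) and Utp4 (chr8:106893570-106893689, plus strand), a further processome gene, are shown for the E-box in their windows, which is in capitals. This motif and Utp4 were chosen after the data were seen.
Wdr43: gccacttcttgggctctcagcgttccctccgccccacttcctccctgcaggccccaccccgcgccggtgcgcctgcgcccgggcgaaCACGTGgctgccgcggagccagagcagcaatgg
Utp4: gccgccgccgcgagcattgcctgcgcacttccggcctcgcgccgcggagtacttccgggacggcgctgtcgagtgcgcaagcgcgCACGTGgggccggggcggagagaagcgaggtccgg
The E-box CACGTG, which reads the same on both strands, is the motif that Myc and its partners are known to bind. It stood in 7 of 30 windows of this list (23.3%; 27 of the 33 members had a window), against 7.15% of all windows. Every member of this list of known ribosome genes was called, so the share cannot be tied to the calls. The E-box stood in 2 of 12 windows of called MHC class I members (16.7%) and in 3 of 20 of those of the unfolded protein response (15.0%). Across the called members of the 5 lists searched, 5 windows held more than 1 kind of motif and 0 had motifs that overlapped.

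**Figure D2:**
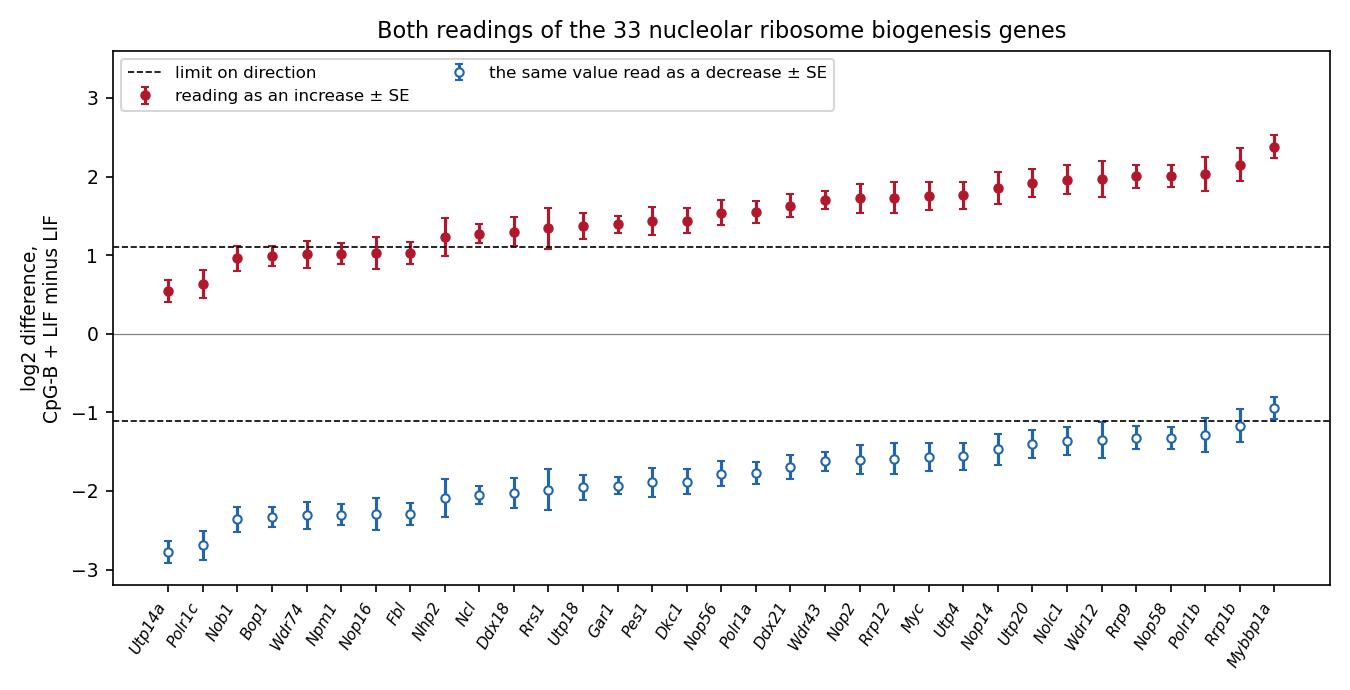
Both readings (log2, y axis, ± SE) of the 33 nucleolar genes (x axis) in CpG-B + LIF vs LIF, with filled circles for the value taken as an increase and open circles for the same value taken as a decrease. The increases run from 0.547 to 2.38 and the decreases from -2.78 to -0.942, and the dashed lines mark the limit of 1.11 within which a direction was given.

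Among the 10 genes with the smallest p in each direction class were some of nuclear transport and of protein folding, which were not tested as a group. Ran, the GTPase that drives traffic through nuclear pores, was at 1.06, 0.99 and 1.03 in CpG-B + LIF arrays, against -0.08, 0.07 and 0.01 in LIF arrays, and read 1.03 ± 0.10 higher (2.04-fold, adjusted p = 1.08e-06). The pore component Nup93 read 1.02 ± 0.11 higher. Both differences were many times the spread between arrays, which the choice of these genes by smallest p implies. Tcp1, a subunit of the CCT chaperonin that folds actin and tubulin, was at 1.01, 0.98 and 1.15 in CpG-B + LIF arrays, against 0.00, -0.08 and 0.08 in LIF arrays, and read 1.05 ± 0.11 higher. Other subunits of the same ring had no readable direction, with Cct7 at 1.57 ± 0.11 or -1.75, Cct3 at -1.60 ± 0.12 or 1.72 and Cct6a at -1.61 ± 0.12 or 1.71. On the upward side of the period these 4 subunits lie between 1.05 and 1.72, and on the downward side between -2.28 and -1.60. Hspa9, the mitochondrial HSP70, read 1.51 ± 0.11 or -1.81.

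MHC class I presentation, by which cells show peptides to CD8 T cells, had no member that read lower. Of 17 measured members, 14 were called (82.4%, against 25.4% of all genes). Of these, 11 read higher and 3 had no readable direction, with a median of 0.663. All 17 nearest readings were positive, between 0.0536 and 1.36, although that of Nlrc5, the class I transactivator, was -0.30 when the probe sets of the gene were averaged. Tapbp, the tapasin that tethers class I molecules to the peptide transporter, was at 1.00, 0.98 and 1.15 in CpG-B + LIF arrays, against 0.03, -0.10 and 0.08 in LIF arrays. It read 1.04 ± 0.11 higher (2.06-fold, adjusted p = 1.87e-06). The transporter subunit Tap1 was at 1.02, 1.08 and 0.95 in CpG-B + LIF arrays, against 0.19, -0.03 and -0.16 in LIF arrays, and read 1.02 ± 0.13 higher. Both genes separated the groups by several times their spread. The trimming peptidase Erap1 read 0.83 ± 0.14 higher, and the loading chaperones Calr and Pdia3 1.09 ± 0.12 and 0.83 ± 0.10 higher. H2-Q4, a non-classical class I gene of a family of near-identical copies whose probes may share signal, read 1.30 ± 0.16 or -2.02, and the proteasome activator subunit Psme2 1.23 ± 0.23 or -2.09. B2m, the light chain, gave 0.05 ± 0.10 and was not called, so it was either nearly level or near 10-fold changed.

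MHC class II genes were called in 5 of 16 members, 3 higher, 1 lower and 1 with no readable direction (31.2%, against 25.4% of all genes). Rfx5, a factor of the class II promoter complex, read 0.81 ± 0.17 higher. Marchf1, the ubiquitin ligase that removes class II and CD86 from the surface, was at -0.75, -0.96 and -0.76 in CpG-B + LIF arrays, against 0.09, 0.02 and -0.11 in LIF arrays, and read lower at -0.83 ± 0.16 (adjusted p = 0.000822). H2-Ob, a chain of the peptide loading inhibitor H2-O, read -1.22 ± 0.21 or 2.10. Cd74, the invariant chain, read 0.46 ± 0.16 higher (adjusted p = 0.0469), a call lost when any 1 of the 6 arrays was left out (adjusted p = 0.0516 to 0.158). H2-Ab1 gave 0.49 ± 0.20 and was not called (adjusted p = 0.0917), but was called with only the arrays of the compared groups in the fit or with the replicate number as a block (adjusted p = 0.0158 with the block).

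Genes of the unfolded protein response and the secretory pathway, which expand the folding capacity of the endoplasmic reticulum, were called in 23 of 28 members. That is 82.1%, against 25.4% of all genes. Of the 23, 13 read higher, 1 read lower and 9 had no readable direction, with a median of 0.77. Manf, a secreted stress factor, was at 1.12, 1.01 and 1.05 in CpG-B + LIF arrays, against 0.00, -0.05 and 0.05 in LIF arrays, and read 1.06 ± 0.10 higher (2.08-fold, adjusted p = 6.7e-07). Its 3 stimulated arrays lay close together and far from the LIF arrays. Hspa5, the chaperone BiP, was at 1.22, 1.29 and 1.23 in CpG-B + LIF arrays, against 0.01, 0.08 and -0.09 in LIF arrays, which reads 1.24 ± 0.11 or -2.08. The disulphide isomerases Pdia6 and Pdia4 read 1.56 ± 0.12 or -1.76 and -1.60 ± 0.13 or 1.72. The stress transcription factor Ddit3 read 1.41 ± 0.15 or -1.91. Sdf2l1 was the member that read lower (-0.95 ± 0.17, or 2.37), and Xbp1, the factor spliced in this response, gave -0.27 ± 0.15 and was not called.

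**Figure D3:**
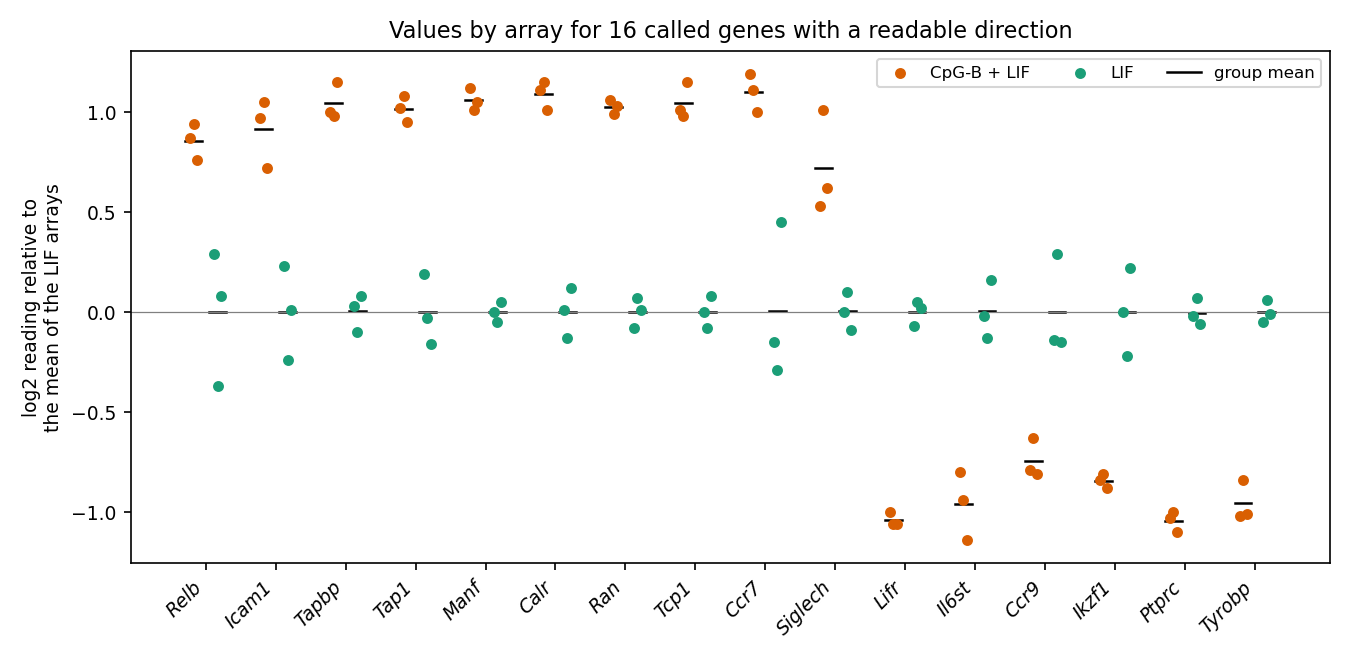
Values by array (log2 reading relative to the mean of the LIF arrays, y axis) of 16 called genes with a readable direction (x axis), with a point per array and a bar at each group mean. The 3 CpG-B + LIF arrays lie apart from the 3 LIF arrays in every gene shown, above them from Relb to Siglech and below them from Lifr to Tyrobp.

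Transcription factors that define plasmacytoid dendritic cells changed in 15 of 22 members (68.2%, against 25.4% of all genes). Of these, 2 read higher, 6 read lower and 7 had no readable direction, with a median of -0.223. In such bulk samples fewer cells of a type and less RNA per cell cannot be told apart. Tcf4, which encodes E2-2, the master factor of the lineage, was at -1.57, -1.45 and -1.47 in CpG-B + LIF arrays, against -0.10, 0.03 and 0.07 in LIF arrays, a reading of -1.50 ± 0.11 or 1.82 (adjusted p = 1.56e-07). Bcl11a, a factor upstream of Tcf4, read 1.60 ± 0.15 or -1.73. Ikzf1, the lymphoid factor Ikaros, was at -0.84, -0.81 and -0.88 in CpG-B + LIF arrays, against 0.00, -0.22 and 0.22 in LIF arrays, and read lower at -0.84 ± 0.15 (adjusted p = 0.000245). All 3 stimulated arrays of Ikzf1 lay below every LIF array. Zeb2, needed for plasmacytoid commitment, read lower at -0.91 ± 0.11 and the E protein Tcf12 at -0.76 ± 0.13. The Ets factor Spib read lower at -0.44 ± 0.15 (adjusted p = 0.0328), a call lost under 5 alternatives (adjusted p = 0.0565 to 0.168). Irf8 (-0.21 ± 0.13) and Id2, an inhibitor of E proteins (-0.24 ± 0.16), were not called. Flt3, the receptor for the growth factor of dendritic cells, read 1.34 ± 0.15 or -1.98.

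Surface and effector genes of the cell type split in direction. Of 26 measured, 18 were called (69.2%, against 25.4% of all genes). Of these, 7 read higher, 8 read lower and 3 had no readable direction, with a median of -0.192. Siglech, the receptor used in the sorting gate, was at 0.53, 1.01 and 0.62 in CpG-B + LIF arrays, against 0.00, 0.10 and -0.09 in LIF arrays, and read 0.72 ± 0.13 higher (adjusted p = 0.000379). The other reading is 6.06-fold lower. Bst2, the antigen of the antibody PDCA-1 and itself interferon-inducible, read 0.64 ± 0.15 higher. Ccr9, the gut homing receptor of resting plasmacytoid cells, was at -0.79, -0.63 and -0.81 in CpG-B + LIF arrays, against -0.14, 0.29 and -0.15 in LIF arrays, and read lower at -0.74 ± 0.13 (adjusted p = 0.000271). Ccr9 was thus lower in all 3 stimulated arrays, with no overlap. Cd300c, an activating receptor of the CD300 family, read lower at -1.09 ± 0.13, and Dntt, the terminal transferase of lymphoid progenitors, at -1.07 ± 0.21. Plac8 read -1.36 ± 0.11 or 1.96, and Pacsin1, which shapes endosomal membrane, 1.53 ± 0.15 or -1.79. Tyrobp, the adaptor DAP12 through which Siglec-H signals, was at -1.02, -0.84 and -1.01 in CpG-B + LIF arrays, against -0.05, 0.06 and -0.01 in LIF arrays, and read lower at -0.96 ± 0.11.

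Markers of the other cells that the sort could hold were counted too, against the 25.4% of all genes called. Since levels are lost, neither their summed level nor which of them are near 0 can be given. B cell markers were called in 6 of 16 members (37.5%), 0 higher, 4 lower and 2 with no readable direction (median -0.48). Conventional dendritic cell markers were called in 7 of 12 (58.3%), 0 higher, 3 lower and 4 with no readable direction (median -0.514). Macrophage and monocyte markers were called in 9 of 15 (60%), 1 higher, 3 lower and 5 with no readable direction (median -0.233). Neutrophil markers were called in 4 of 11 (36.4%), 1 higher, 0 lower and 3 with no readable direction (median -0.302). Plasma cell markers were called in 4 of 8 (50%), 2 higher, 0 lower and 2 with no readable direction. NK and T cell markers were called in 3 of 12 (25.0%, 2 higher, 1 lower) and erythroid markers in 2 of 5 (40%, 2 higher). The share of NK and T cell markers was thus that of all genes. Cd72, a B cell coreceptor, read -1.48 ± 0.17 or 1.84, Sirpa, of conventional type 2 cells and macrophages, -1.21 ± 0.13 or 2.11, and Sdc1, the plasma cell marker CD138, 1.47 ± 0.17 or -1.85. The neutrophil genes S100a8 and S100a9 spread widely, at -2.37, -1.30 and -1.28 and at -2.28, -1.05 and -1.55 in CpG-B + LIF arrays. Replicate 1 stood apart from the other CpG-B + LIF arrays in both. Each array is placed beside its group mean and values repeat every 3.32, so which array lies farthest from the LIF mean cannot be read. Their part in the results above was not tested.

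The receptor for LIF itself and its partner read lower after CpG-B. Lifr was at -1.0, -1.06 and -1.06 in CpG-B + LIF arrays, against -0.07, 0.05 and 0.02 in LIF arrays, and read lower at -1.04 ± 0.11 (2.06-fold, adjusted p = 2.06e-06). Il6st, which encodes gp130, was at -0.80, -0.94 and -1.14 in CpG-B + LIF arrays, against -0.02, -0.13 and 0.16 in LIF arrays, and read lower at -0.96 ± 0.13 (1.95-fold). The groups of neither gene overlapped. Among the 24 measured genes of the LIF receptor, JAK-STAT3 and SOCS list 11 were called (45.8%, against 25.4% of all genes). Of these, 2 read higher, 8 lower and 1 had no readable direction, with a median of -0.1. The other gp130 receptor chain Il6ra lay at the limit, at -1.11 ± 0.16 or 2.21. The kinase genes Tyk2, Jak2 and Jak1 read lower at -0.77 ± 0.15, -0.40 ± 0.12 and -0.36 ± 0.11, calls that for Jak2 and Jak1 were lost under some alternatives (adjusted p up to 0.1 and up to 0.0812). Socs2, a feedback inhibitor of JAK signalling, read lower at -1.01 ± 0.25, but lay at -2.08 with its probe sets averaged, past the limit on direction. Ptpn2, a phosphatase of STATs, read 0.84 ± 0.15 higher, but 0.28 (adjusted p = 0.183) when its probe sets were averaged. Stat3 (-0.01 ± 0.11) and Socs3 (-0.11 ± 0.16) were not called, which leaves a change near 0 or near 10-fold.

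STAT3 targets were called in 14 of 30 members (46.7%, against 25.4% of all genes), 3 higher, 5 lower and 6 with no readable direction. Pim1, a survival kinase, was at 1.29, 0.61 and 1.08 in CpG-B + LIF arrays, against 0.21, -0.10 and -0.11 in LIF arrays, and read 0.99 ± 0.18 higher (adjusted p = 0.000307). Il4ra, the receptor for IL-4 and IL-13, read -1.45 ± 0.14 or 1.87, and Bcl3, an atypical IkB protein, gave -0.40 ± 0.21 and was not called. Cytokine and growth factor receptors were called in 14 of 25 members (56.0%), 1 higher, 4 lower and 9 with no readable direction, among them Il7r at -1.31 ± 0.13 or 2.01. In the BCL2 family and survival list 8 of 18 were called (44.4%), 1 higher, 3 lower and 4 with no readable direction. Bcl2 read 1.40 ± 0.19 or -1.92 and Cflar, an inhibitor of caspase 8, 1.40 ± 0.15 or -1.92, but 0.45 with its probe sets averaged (adjusted p = 0.0154).

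In the TLR9 pathway both receptor and adaptor were called. Tlr9 was at 0.54, 0.37 and 0.44 in CpG-B + LIF arrays, against 0.01, 0.07 and -0.08 in LIF arrays, and read 0.45 ± 0.11 higher (1.37-fold, adjusted p = 0.00552). Myd88, its adaptor, was at -0.79, -0.82 and -0.88 in CpG-B + LIF arrays, against 0.10, -0.21 and 0.10 in LIF arrays, and read lower at -0.83 ± 0.14 (1.78-fold, adjusted p = 0.000231). As nearest readings, receptor and adaptor thus lay in opposite directions, each without overlap of the groups. The other reading of Myd88 is a rise of more than 4.64-fold. The chaperone Cnpy3, which TLRs need to leave the endoplasmic reticulum, read 0.78 ± 0.11 higher, and Slc15a4, a lysosomal transporter needed for TLR7 and TLR9 responses, -1.14 ± 0.16 or 2.18. Irf7, the factor of interferon production, read lower at -0.91 ± 0.19 (adjusted p = 0.00136), and its other reading is likewise a rise of more than 4.64-fold. Tlr7 gave -0.34 ± 0.14 and was not called (adjusted p = 0.0955), but was called without LIF replicate 3 (-0.45, adjusted p = 0.0382). Of 25 members, 12 were called (48.0%, against 25.4% of all genes), 4 higher, 5 lower and 3 with no readable direction.

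Of 14 measured interferon genes of type I and type III, 1 was called (7.14%, against 25.4% of all genes). That gene was Ifnb1, at -1.02, -1.32 and -1.44 in CpG-B + LIF arrays, against -0.19, 0.22 and -0.03 in LIF arrays, a reading of -1.26 ± 0.23 or 2.06 (adjusted p = 0.000479). Ifna4 gave 0.20 ± 0.32 and was not called. Ifna genes are near-identical copies whose probe sets may share signal, and a change near 10-fold would also read as none.

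Interferon-stimulated genes did change, in 27 of 39 members (69.2%, against 25.4% of all genes). Of these, 9 read higher, 6 lower and 12 had no readable direction, with a median of 0.189. Stat2, which transmits the interferon signal, was at 0.60, 0.66 and 0.44 in CpG-B + LIF arrays, against -0.05, 0.04 and 0.01 in LIF arrays, and read 0.57 ± 0.13 higher (adjusted p = 0.00213). Mx1, an antiviral GTPase, was at -1.02, -1.08 and -0.97 in CpG-B + LIF arrays, against 0.16, -0.02 and -0.14 in LIF arrays, and read lower at -1.02 ± 0.14, with 2.30 as the other reading. Stat2 and Mx1, of the same pathway, read in opposite directions. Dtx3l, a ubiquitin ligase, and Ifitm3, an antiviral membrane protein, read 1.02 ± 0.13 and 1.08 ± 0.17 higher. The antiviral kinase Eif2ak2 read -1.53 ± 0.14 or 1.79, Herc6 -1.62 ± 0.15 or 1.70 and Ifi35 1.39 ± 0.14 or -1.94. The motif GAAANNGAA of interferon response elements, on both strands, stood in 13 of 29 windows of called members (44.8%; 21 of the 27 called members had a window), against 8.56% of all windows. Uncalled members of this list of known interferon-stimulated genes were not counted, so the share cannot be tied to the calls.

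Cell cycle genes were called in 23 of 34 members (67.6%, against 25.4% of all genes). Of these, 8 read higher, 6 lower and 9 had no readable direction, with readings in both directions. The G1 kinase gene Cdk4 was at 1.12, 1.12 and 1.02 in CpG-B + LIF arrays, against -0.23, 0.31 and -0.08 in LIF arrays, and read 1.09 ± 0.14 higher, and Cdk6 read 0.98 ± 0.21 higher. Some genes of mitosis read lower, among them Kif11, a spindle motor, at -0.87 ± 0.20, the kinase Plk1 at -0.89 ± 0.20 and the proliferation marker Mki67 at -0.88 ± 0.21. Mki67 spread widely, at -0.80, -1.41 and -0.43 in CpG-B + LIF arrays, against -0.03, 0.04 and -0.01 in LIF arrays, but did not overlap. Subunits of the MCM replication helicase gave mixed readings, with Mcm2 at -1.06 ± 0.12 or 2.27, Mcm7 at 1.38 ± 0.14 or -1.95, Mcm6 at -1.30 ± 0.16 or 2.02 and Mcm5 at -1.66 ± 0.18 or 1.67. On the upward side of the period these 4 lie between 1.38 and 2.27, and on the downward side between -1.95 and -1.06, and Mcm2 is the 1 with a readable direction, lower. Cyclin A (Ccna2) gave -0.34 ± 0.15 and was not called.

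In energy metabolism the respiratory chain had calls in 1 direction. Of 33 measured members, 11 were called (33.3%, against 25.4% of all genes), and all 11 read higher (10.5% of all genes did). The median was 0.293, and 32 of 33 nearest readings were positive. Uqcrc1, a core protein of complex III, was at 0.86, 0.88 and 0.64 in CpG-B + LIF arrays, against -0.11, 0.02 and 0.09 in LIF arrays, and read 0.79 ± 0.13 higher (1.73-fold, adjusted p = 0.00017). Atp5o, of the ATP synthase, was at 0.68, 0.73 and 0.66 in CpG-B + LIF arrays, against -0.22, 0.16 and 0.06 in LIF arrays, and read 0.69 ± 0.13 higher. Neither gene overlapped between groups. Cycs, cytochrome c, read 0.94 ± 0.17 higher. Glycolysis and glucose uptake genes were called in 13 of 20 members (65.0%, against 25.4% of all genes), 5 higher, 2 lower and 6 with no readable direction. Pgam1 read 1.24 ± 0.14 or -2.09, the glucose transporter Slc2a3 -1.57 ± 0.15 or 1.75 and the hexokinase Hk2 -1.66 ± 0.19 or 1.66. In cholesterol synthesis 6 of 20 were called (30%), a share near that of all genes, with Hsd17b7 0.81 ± 0.18 higher, Fdps at 1.21 ± 0.17 or -2.11 and the regulator Srebf2 at -0.49 ± 0.10. Immediate early and stress genes were called in 15 of 28 (53.6%), with 3 higher, 5 lower and 7 with no readable direction.

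In cells without LIF, CpG-B against medium, on arrays shared with none of the above, called 3795 genes (19.2%), of which 1371 read higher (6.94%), 1383 lower (7%) and 1041 had no readable direction (5.27%). Both comparisons called 2858 genes, which are 56.9% of the calls with LIF and 75.3% of those without. Of the 1520 called with a readable direction in both, 1511 had the same direction and 9 the opposite one. The gene for tapasin, Tapbp, read 1.04 ± 0.11 with LIF and 1.02 ± 0.12 without, Relb 0.86 ± 0.16 and 1.08 ± 0.18, Il6st -0.96 ± 0.13 and -1.05 ± 0.15, and Tcf4 -1.50 ± 0.11 and -1.41 ± 0.13. The nucleolar list was called in 26 of 33 members without LIF, with 26 called in both. Respiratory chain genes were called in 11 of 33 with LIF and 2 of 33 without. That difference between counts was not tested as such, and 0 of these genes were called in the interaction.

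**Figure D4:**
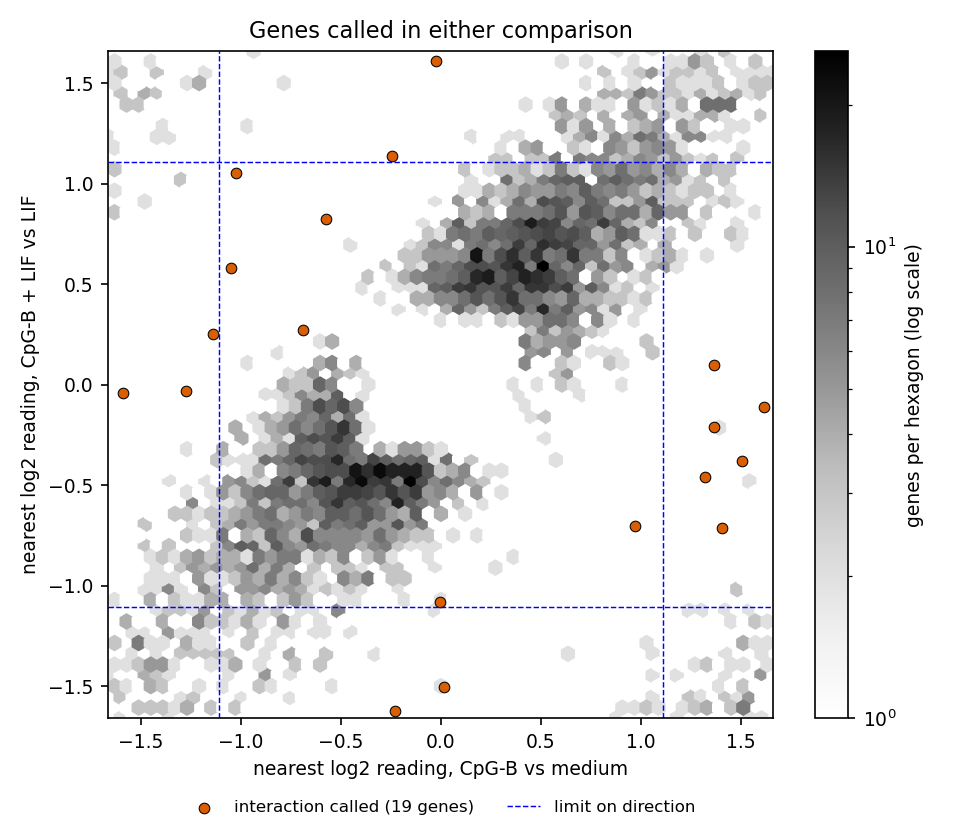
Nearest log2 readings of genes called in either comparison, CpG-B + LIF vs LIF (y axis) against CpG-B vs medium (x axis), shaded by the number of genes per hexagon on a log scale, with the 19 interaction genes as circles and dashed lines at the limit of 1.11 on direction. Of the 1520 genes readable in both, 1511 had the same direction, and genes near a corner or edge continue at the opposite one because readings repeat every 3.32.

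The interaction tested whether the CpG-B response differed with LIF, as the response in LIF minus the response in medium, again taken to its nearest reading. It called 19 genes (0.0962%), 1 higher (0.00506%), 1 lower (0.00506%) and 17 with no readable direction (0.0861%), with 1942 at an unadjusted p under 0.05 (9.83%). The count was 43 with the replicate number as a block and 0 when either medium array was left out. Socs3, the feedback inhibitor that STAT3 induces, was at -0.09, -0.17 and -0.07 in CpG-B + LIF arrays, against 0.12, -0.21 and 0.08 in LIF arrays. Relative to the medium mean it was at 1.82, 1.43 and 1.58 in CpG-B arrays, against 0.28 and -0.28 in medium arrays. So the arrays with LIF overlapped, while CpG-B alone stood apart from medium at 1.61 ± 0.18 or -1.71, and the interaction was 1.60 ± 0.24 or -1.72 (adjusted p = 0.0123). With the probe sets of Socs3 averaged it was no longer called (adjusted p = 0.76). Casp4, which encodes the inflammatory caspase that senses cytosolic lipopolysaccharide (caspase 11 in mice), was at 1.55, 1.58 and 1.69 in CpG-B + LIF arrays, against 0.04, 0.34 and -0.38 in LIF arrays. In the cells without LIF it was at -0.01, -0.14 and 0.08 in CpG-B arrays, against 0.04 and -0.04 in medium arrays, and its interaction was 1.63 ± 0.23 or -1.69 (adjusted p = 0.00747). Casp4 thus separated the groups with LIF and not without, while a change near 10-fold without LIF would read the same. Cd69, an early activation marker that retains cells in lymphoid tissue, read -0.70 ± 0.18 with LIF and 0.97 ± 0.20 without. Its interaction was 1.65 ± 0.27 or -1.67 (adjusted p = 0.0154), of which -1.67 corresponds to these nearest readings.

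Only Moxd1 and Pygb had an interaction whose direction was readable, and they are named for that reason, after their values were seen. Moxd1, a monooxygenase-like gene, was at -1.05, -1.26 and -0.94 in CpG-B + LIF arrays, against 0.21, -0.23 and 0.02 in LIF arrays. Without LIF it was at -0.04, -0.03 and 0.05 in CpG-B arrays, against 0.07 and -0.07 in medium arrays, and the interaction was -1.08 ± 0.20 (adjusted p = 0.0349). Pygb, the brain form of glycogen phosphorylase, read 0.27 ± 0.12 with LIF and -0.69 ± 0.13 without, an interaction of 0.96 ± 0.18 (adjusted p = 0.0396). The remaining genes with the smallest interaction p were Lilr4b, a leukocyte immunoglobulin-like receptor, Thra, a thyroid hormone receptor, Tbc1d4, a regulator of glucose transporter traffic, Cdh1, which encodes E-cadherin, the IL-13 receptor chain Il13ra1, the adenylate kinase Ak8 and the protease inhibitor Spint1. Cdh1 gave -0.04 ± 0.15 with LIF and -1.59 ± 0.17 or 1.74 without, and Spint1 -1.50 ± 0.16 or 1.82 with LIF and 0.01 ± 0.18 without.

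**Figure D5:**
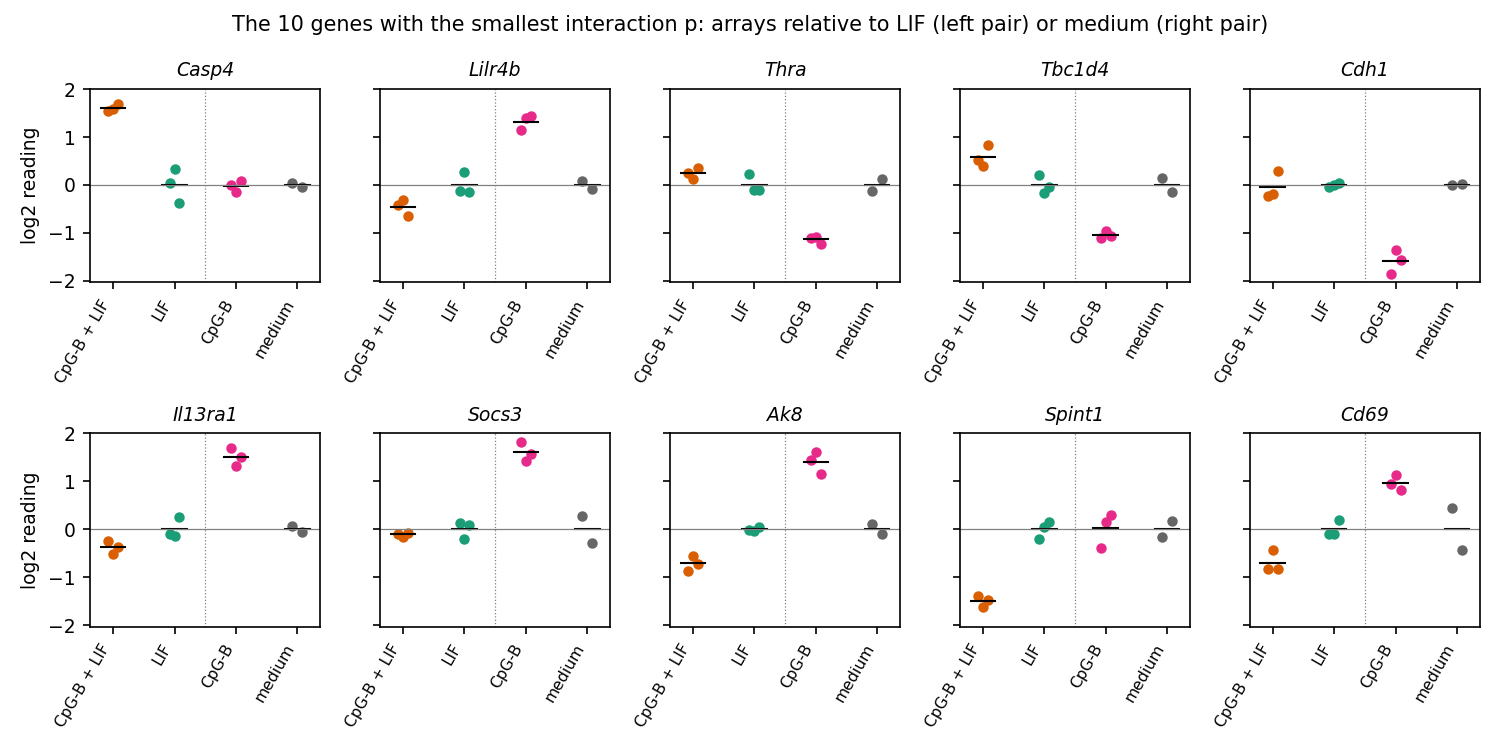
Values by array (log2 reading, y axis) of the 10 genes with the smallest interaction p, a panel each, with CpG-B + LIF and LIF arrays relative to the LIF mean and CpG-B and medium arrays relative to the medium mean, and a bar at each group mean. In Socs3, Cdh1, Thra and Il13ra1 the cells without LIF separate and those with LIF lie within 0.4 of each other on average, and in Casp4 and Spint1 the reverse holds.

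The response to CpG-B after LIF differed from that to CpG-A after LIF in 3339 genes (16.9%), by the direct contrast, with 1581 higher (8%), 1112 lower (5.63%) and 646 with no readable direction (3.27%) under CpG-B. Both are set against the same LIF arrays, so only this direct difference was tested. The nucleolar list was called in 33 of 33 members, 11 higher, 2 lower and 20 with no readable direction under CpG-B + LIF relative to CpG-A + LIF. Npm1 read 1.02 ± 0.13 higher in CpG-B + LIF than in LIF, and 0.94 ± 0.13 higher than in CpG-A + LIF (adjusted p = 7.08e-05). The reading of Npm1 for CpG-A + LIF against LIF was 0.09 and not called, and 7 of 33 members of the list were called there, where 17.4% of all genes were (6.23% higher, 7.29% lower and 3.85% with no readable direction). Ran read 0.57 ± 0.10 higher and Tcp1 0.90 ± 0.11 higher under CpG-B. Gar1 and the importin gene Ipo5 differed by 1.34 ± 0.11 or -1.98 and by 1.65 ± 0.12 or -1.67, and Fasn, fatty acid synthase, by 1.41 ± 0.11 or -1.91.

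Interferon-stimulated genes read lower under CpG-B + LIF than under CpG-A + LIF in 19 of the 23 members called, with 0 higher, 4 with no readable direction and a median of -0.519 over the 39 measured, where the median of all genes was -0.0529. Among all genes 16.9% were called in this contrast and 5.63% read lower. Stat2 was at 0.60, 0.66 and 0.44 in CpG-B + LIF arrays, against 1.65, 1.29 and 1.52 in CpG-A + LIF arrays, and read lower at -0.92 ± 0.13 (adjusted p = 5.61e-05). Ifit2, an antiviral RNA-binding protein gene, was at -0.02, -0.33 and -0.15 in CpG-B + LIF arrays, against 1.17, 0.51 and 1.04 in CpG-A + LIF arrays, and read lower at -1.07 ± 0.24. The CpG-B arrays of both genes lay below every CpG-A array. Mx1 read lower at -1.03 ± 0.14, and Cxcl10, an interferon-inducible chemokine, -1.41 ± 0.20 or 1.91. Ifna4 differed by -1.62 ± 0.32 or 1.70 (adjusted p = 0.00132), with CpG-A + LIF arrays spread from -2.52 to -0.73. Without CpG-A + LIF replicate 3 that call was lost (-3.16, close to no change on the period, adjusted p = 0.815). Tlr7 read lower at -1.03 ± 0.14 under CpG-B, and Stat3 at -0.59 ± 0.11.

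Genes of the cell type also differed between the CpGs after LIF. The surface and effector list was called in 20 of 26 members (76.9%, against 16.9% of all genes). Of these, 1 read higher, 10 lower and 9 had no readable direction under CpG-B, with a median of -0.709. Siglech was at 0.53, 1.01 and 0.62 in CpG-B + LIF arrays, against -0.68, -0.83 and -0.71 in CpG-A + LIF arrays, a difference of 1.46 ± 0.13 or -1.86 (adjusted p = 2.08e-06). Lifr was at -1.0, -1.06 and -1.06 in CpG-B + LIF arrays, against 0.96, 0.95 and 1.08 in CpG-A + LIF arrays, a difference of 1.29 ± 0.11 or -2.03 (adjusted p = 2.08e-06). Each gene lay on opposite sides of the LIF mean under the CpGs as nearest readings. For Lifr, the values as printed by array correspond to the reading of -2.03 and not to that of 1.29. Spib read lower at -0.94 ± 0.15 and Ccr9 at -0.88 ± 0.13 under CpG-B, and Tcf4 differed by -1.20 ± 0.11 or 2.13. Ccr7 was at 1.19, 1.11 and 1.00 in CpG-B + LIF arrays, against 0.04, -0.35 and -0.44 in CpG-A + LIF arrays, a difference of 1.35 ± 0.18 or -1.97. Respiratory chain genes were called in 7 of 33 members, a share of 21.2% near the 16.9% of all genes, and the 7 read higher under CpG-B (8% of all genes did), with Atp5o at 0.64 ± 0.13, and cholesterol synthesis genes in 0 of 20.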

How the data were processed

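Total RNA was amplified and hybridised to Affymetrix arrays, and the authors deposited 1 table of values for 17 arrays. Per the submitters' processing notes RMA was used; the version used is not given in the sources used here. Per the deposited table, the values are linear intensity digits with the decimal mark lost, a unit other than the usual ones. Of the deposited values, 419559 of 419560 are whole numbers, 1 kept its mark (251.19), and 32% begin with 1. Array number limits the precision.

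Log2 of the digits was taken modulo log2(10), group means were circular, and each array was placed the shortest way from its group mean. Of 24680 probe sets, 21354 had exactly 1 gene symbol, giving 19751 genes, with the probe set of most accessions standing for each of the 893 genes with several. The test was limma 3.58.1 (R 4.3.3), a fit of all 17 arrays by group (11 residual degrees of freedom), with Benjamini-Hochberg adjustment over all genes and calls under 0.05. Contrasts and the interaction were taken to their nearest reading. Scripts were tested on simulated data, and Python 3.11.15 drew the figures. Same-numbered CpG-B + LIF and LIF arrays did not deviate together (correlations of -0.056 to -0.012), so no pairing was assumed. CpG-B + LIF and CpG-B arrays did (0.13 to 0.24), so the interaction is also given with the replicate number as a block.

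The groups, the limit of 1.11 on direction and the gene lists were chosen with earlier results of these data known. Named genes are a fixed panel, the 10 smallest p per direction, up to 4 called members per list, and the 10 smallest p of the interaction and of the contrast with CpG-A + LIF. Other list members named were chosen after their values were seen. No filter on low intensity was possible. Alternatives are given in the closing section.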

Additional observations from a re-analysis of the deposited data

Results flagged for a closer look

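The effect of CpG-B differed between cells with and without LIF, by a test of the difference itself, in 19 genes. The 10 with the smallest p were Lilr4b (interaction 1.54 ± 0.21 or -1.78), Thra (1.39 ± 0.19 or -1.93), Casp4 (1.63 ± 0.23 or -1.69), Tbc1d4 (1.63 ± 0.24 or -1.69), Cdh1 (1.54 ± 0.23 or -1.78), Socs3 (1.60 ± 0.24 or -1.72), Il13ra1 (1.44 ± 0.23 or -1.88), Ak8 (1.21 ± 0.19 or -2.12), Spint1 (-1.52 ± 0.24 or 1.81) and Cd69 (1.65 ± 0.27 or -1.67). Their adjusted p ran from 0.00747 to 0.0154, and none of the 10 has a readable direction. Moxd1 (-1.08 ± 0.20) and Pygb (0.96 ± 0.18) are the 2 with one. Every one of these 12 calls was lost without medium replicate 1, where 0 genes were called in all, and the medium group has only 2 arrays.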

How the results depend on the processing

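Counts of genes called in CpG-B + LIF vs LIF and in CpG-B + LIF vs CpG-A + LIF stayed within 1.5 times of those reported under every alternative run, and ran from 4092 to 4638 and from 2438 to 2986 when 1 array was left out. Leaving out 1 array gave 2451 to 3393 calls for CpG-B vs medium (lowest without medium replicate 3), 0 to 35 for the interaction (0 without either medium array, 8 without CpG-B + LIF replicate 1, 11 without CpG-B replicate 3, 31 and 35 without LIF replicates 2 and 3), 8 to 11 called maturation genes, 3 to 4 of MHC class II, 2 to 4 plasma cell, 2 to 6 neutrophil and 1 to 2 NK and T cell markers. The count with no readable direction was 2201 with the limit at 0.83. The interaction called 43 genes with the replicate number as a block (replicate block), 11 with only the compared arrays and 446 when it was not taken again to its nearest reading, where the signs of Lilr4b (-1.78), Socs3 (-1.72), Il13ra1 (-1.88), Ak8 (-2.12) and Cd69 (-1.67) turned, as the construction implies. The replicate block also gave 5145 calls for CpG-B + LIF vs LIF, 3821 for CpG-B vs medium and 3482 against CpG-A + LIF. With probe sets averaged, Socs3 (0.01) and Nlrc5 (-0.30) turned sign; Cd80, Cflar, Socs2 and Jmjd1c (-0.55) moved by over 1.5 times; Stat3 gave 0.01 with arrays centred and -0.03 to 0.01 with 1 array left out. Single readings under an alternative are those closest to the reported value. The causes were not tested. Of the named genes, 127 of 135 calls in CpG-B + LIF vs LIF held under all alternatives; Nlrc5 turned sign, and Il12b, Cd86, Cd74, Spib, Ptpn2, Jak1 and Jak2 lost theirs under some. Against CpG-A + LIF 19 of 20 held, all but Ifna4, and in the interaction 0 of 12. A filter on dim probes was not run, since levels are lost.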
